A study of Mus musculus with 14 samples.

Results

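The T cell receptor set consists of 7 genes chosen by name: the CD3 chains Cd3e, Cd3g and Cd3d, the zeta chain Cd247, the adhesion receptor Cd2, the kinase Lck and the phosphatase Ptpn22. A gene was represented by every array probe annotated with its symbol, averaged where it had several. Probes were found for 6 of the 7 genes, 10 probes in all, among 19532 named genes on the arrays; Lck had no probe under that symbol and is not analysed here. Cd3g, Cd3d, Cd2 and Ptpn22 were read by 1 probe each, Cd3e by 2 and Cd247 by 4. The study asked how the Tsk2 allele of the collagen gene Col3a1, which gives mice a tight, fibrotic skin, alters gene expression. Skin came from 4-week-old female mice, 4 labelled Tsk2 and 4 labelled WT, although the series' design text speaks of 3 of each. Cultured fibroblasts came from Col3a1 knockout mice and had been transfected with Tsk2 Col3a1 (3 samples) or with WT Col3a1 (3 samples, numbered 1, 3A and 3B), so that both fibroblast groups lack the native gene and carry an introduced one. The labels say neither which promoter drove the introduced gene nor whether the cultures were separate, so the p-values below measure the spread between these samples, which in the fibroblasts may be technical.

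The T cell receptor is a pair of variable chains held at the surface by the CD3 gamma, delta and epsilon chains and by a dimer of zeta chains. Its signal starts when the kinase Lck phosphorylates the tails of CD3 and zeta, to which the kinase Zap70 then binds. Cd2 strengthens contact with the partner cell, and Ptpn22 removes phosphate from Lck and Zap70 and so damps the signal. In mouse skin the CD3 complex is carried by gamma-delta T cells of the epidermis as well as by T cells of the dermis, whereas fibroblasts are not known to make it.

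Cd3g, Cd3d and Cd3e lie next to one another on mouse chromosome 9, with Cd3g and Cd3d head to head and 1355 bases between their starts. The promoter windows of Cd3g, Cd3d and Ptpn22 are shown because only these 3 members had no skin value that was held by 50 or more probes of its array. Each window runs 5′ to 3′ from 250 bases before to 50 bases after a RefSeq start (build GRCm38.p6), and RefSeq gives 2 starts for Ptpn22. Capitals mark, on either strand, the E-box form bound by E proteins (CACCTG), the Runx motif (TGTGGT) and an Ets motif (AGGAAG).
Cd3g, chr9:44980382-44980681, minus strand: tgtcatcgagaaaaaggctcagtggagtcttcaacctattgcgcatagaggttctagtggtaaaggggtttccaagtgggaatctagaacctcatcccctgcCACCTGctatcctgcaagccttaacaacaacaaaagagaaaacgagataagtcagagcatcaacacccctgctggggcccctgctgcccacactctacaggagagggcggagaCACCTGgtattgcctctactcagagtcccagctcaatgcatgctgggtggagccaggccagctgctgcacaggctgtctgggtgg
Cd3d, chr9:44981536-44981835, plus strand: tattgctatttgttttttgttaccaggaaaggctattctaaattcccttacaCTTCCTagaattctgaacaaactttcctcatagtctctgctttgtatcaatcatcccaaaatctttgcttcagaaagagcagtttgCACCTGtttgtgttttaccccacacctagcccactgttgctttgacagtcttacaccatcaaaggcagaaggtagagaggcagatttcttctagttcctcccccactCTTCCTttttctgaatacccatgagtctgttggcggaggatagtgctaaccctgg
Ptpn22, first start, chr3:103859545-103859844, plus strand: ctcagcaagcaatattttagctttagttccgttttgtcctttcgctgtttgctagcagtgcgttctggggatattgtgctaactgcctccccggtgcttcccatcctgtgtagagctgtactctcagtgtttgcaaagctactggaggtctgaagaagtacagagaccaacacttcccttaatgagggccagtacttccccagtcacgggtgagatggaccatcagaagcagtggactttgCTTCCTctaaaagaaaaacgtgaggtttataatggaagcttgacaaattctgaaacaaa
Ptpn22, second start, chr3:103860027-103860326, plus strand: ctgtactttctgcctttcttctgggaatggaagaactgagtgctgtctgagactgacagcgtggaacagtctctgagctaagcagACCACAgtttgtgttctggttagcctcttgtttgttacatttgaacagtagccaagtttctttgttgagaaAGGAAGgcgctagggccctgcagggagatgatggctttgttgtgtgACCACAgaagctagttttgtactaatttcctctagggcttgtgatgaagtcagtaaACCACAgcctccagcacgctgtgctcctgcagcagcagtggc
The Cd3g window held the E-protein form of the E-box at 2 places and no Runx or Ets motif. The Cd3d window held that E-box form once and the Ets motif at 2 places. Neither Ptpn22 window held that E-box form; the first held 1 Ets motif, and the second held 1 Ets motif and the Runx motif at 3 places. Among 32851 mouse promoter windows of the same length, 20.2% held this E-box form, 16.8% the Runx motif and 35.4% the Ets motif. The general E-box CANNTG (72.3% of windows), the interferon-response motif (3.44%) and the TATA box TATAAA (13.6%) were also searched on both strands; the first overlaps the E-protein form, the second was in none of the windows shown, and the third was in the first Ptpn22 window alone. These are matches of letters and not measured binding sites. RefSeq windows were matched for 6 of the 7 genes, all but Cd2.

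Each value is a log2 ratio of the sample's signal (Cy5) to that of a universal mouse reference RNA (Cy3), so a value can be compared between samples for 1 gene but not between genes. Many probes of an array shared exactly the same value, which was taken as a mark of dim probes: on each array the median olfactory or vomeronasal receptor probe shared its value with far more probes than the median ribosomal protein probe. A value held by 50 or more probes of its array is called a repeated value here, and such values made up 33.8% to 46.7% of an array. WT skin replicate 2 stood apart, with 12391 of 41174 probes at exactly 0, against 312 to 4796 on the other 13 arrays. Cd3g, Cd3d and Ptpn22 had no repeated value in skin, although the Cd3g value of WT skin replicate 3 was held by 44 probes, near the cut. In skin, 37.5% of the Cd2 values, 50% of the Cd3e probe values and 78.1% of the Cd247 probe values were repeated ones, and those 3 genes are described with less weight. As a check of the labelled tissues, all 12 keratinocyte genes were higher in skin than in the fibroblasts of the same allele. The mean log2 ratio of 12 fibroblast genes did not set the cultures above skin: it was 2.31 to 2.61 in Tsk2 skin, against 1.32 to 1.47 in Tsk2-transfected fibroblasts, and 1.42 to 2.03 in WT skin, against 1.06 to 1.16 in WT-transfected fibroblasts.

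**Figure D1:**
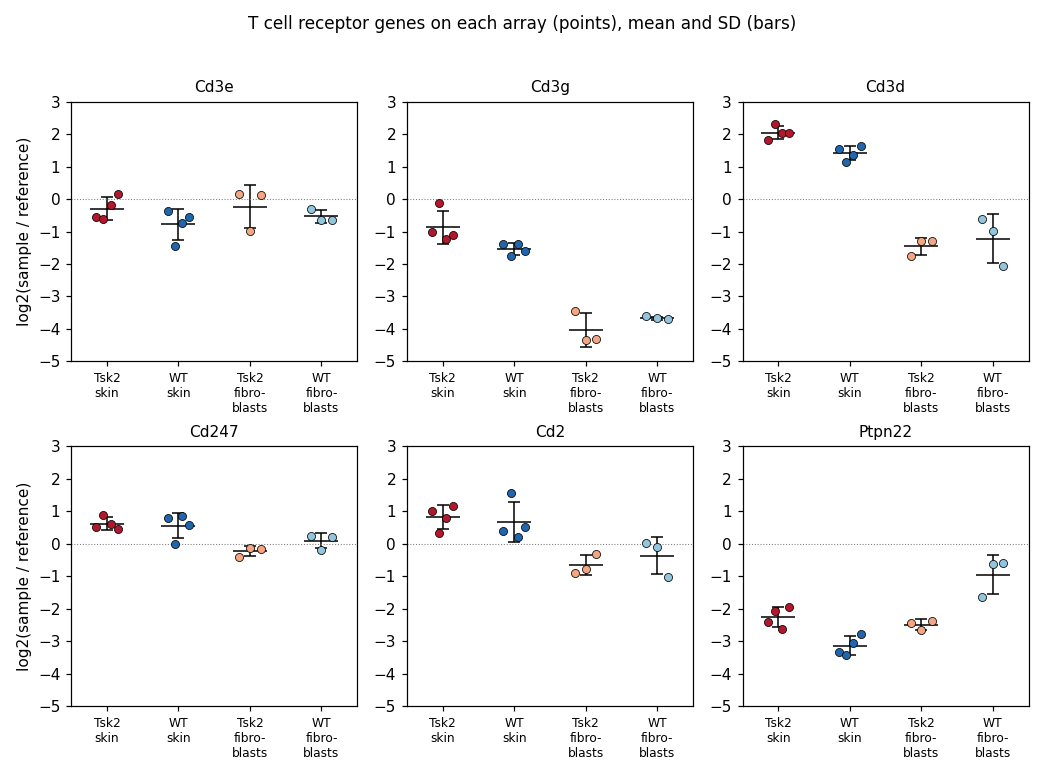
Log2 ratio of each of the 6 measured T cell receptor genes to the reference RNA (vertical axis) on every array of Tsk2 skin, WT skin, Tsk2-transfected fibroblasts and WT-transfected fibroblasts; points are arrays, bars the mean and SD. Cd3g and Cd3d are higher on every skin array than on any fibroblast array, and Cd3d, Cd3g and Ptpn22 are higher on all 4 Tsk2 skin arrays than on any WT skin array.

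The first question is where the genes are detected, skin or cultured fibroblasts. Cd3d stood at 1.82, 2.30, 2.04 and 2.02 in the 4 Tsk2 skins and at -1.76, -1.30 and -1.30 in Tsk2-transfected fibroblasts. It stood at 1.53, 1.13, 1.36 and 1.62 in WT skin, against -0.62, -0.98 and -2.06 in WT-transfected fibroblasts. Every skin array was above every fibroblast array, as was so for 26.9% of all genes between the Tsk2 groups and 25.7% between the WT groups. The ratio was 11.3-fold higher in Tsk2 skin than in Tsk2-transfected fibroblasts and 6.19-fold higher in WT skin than in WT-transfected fibroblasts, both past an adjusted p of 0.05 (limma, Benjamini-Hochberg over all 19532 genes).

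Cd3g stood at -1.02, -0.12, -1.23 and -1.12 in Tsk2 skin, against -3.44, -4.35 and -4.32 in Tsk2-transfected fibroblasts. In WT skin it stood at -1.37, -1.76, -1.38 and -1.61, against -3.61, -3.68 and -3.70 in WT-transfected fibroblasts. The groups again did not overlap, and Cd3g was 8.97-fold higher in Tsk2 skin and 4.40-fold higher in WT skin than in the matching fibroblasts, both past the threshold. Among the 6 measured genes, 4 were higher in Tsk2 skin than in Tsk2-transfected fibroblasts (Cd3g, Cd3d, Cd247 and Cd2) and none lower, where 24.6% of all genes were called higher and 20.3% lower (44.9% in all). In WT skin 3 were higher than in WT-transfected fibroblasts (Cd3g, Cd3d and Cd2) and 1, Ptpn22, was lower, where 24.4% of all genes were called higher and 20% lower (44.5% in all). Tissue against culture and one RNA extraction kit against another cannot be told apart in this contrast, because the labels give skin and fibroblasts different kits.

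Cd2 stood at 1.02, 0.32, 0.78 and 1.17 in Tsk2 skin, against -0.91, -0.76 and -0.32 in Tsk2-transfected fibroblasts, a difference of 1.49 on the log2 scale (SE 0.35, adjusted p = 0.00319). In WT skin it stood at 0.39, 1.58, 0.21 and 0.53, against 0.03, -0.10 and -1.02 in WT-transfected fibroblasts, a difference of 1.04 (adjusted p = 0.0265). The WT call was lost without WT skin replicate 2 (0.74, adjusted p = 0.0589), the array with the many exact zeros, and without WT-transfected replicate 3B (0.71, adjusted p = 0.142), and with 3A and 3B averaged as 1 sample (0.94, adjusted p = 0.0646).

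The 4 probes of Cd247 did not read alike. The probe for transcript NM_001113391 stood at 1.98, 2.32, 1.96 and 1.73 in Tsk2 skin, against 0, 0 and -0.26 in Tsk2-transfected fibroblasts. In WT skin it stood at 1.49, 0, 2.26 and 1.90, against 0.22, -0.23 and 0.09 in WT-transfected fibroblasts. The exact 0 was WT skin replicate 2; the other 7 skin arrays were all above the 6 fibroblast arrays. The other 3 Cd247 probes showed mostly repeated values in all 4 groups, so the mean of the probes understates what the first one reads. The gene mean was 0.85 higher in Tsk2 skin than in Tsk2-transfected fibroblasts (adjusted p = 0.00405) and 0.47 higher in WT skin than in WT-transfected fibroblasts (adjusted p = 0.0820, or 0.00594 with a difference of 0.66 without WT skin replicate 2).

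Cd3e, whose product pairs with both the gamma and the delta chain, averaged -0.30 ± 0.35 in Tsk2 skin and -0.78 ± 0.47 in WT skin (SD, n = 4 each), and -0.24 ± 0.65 in Tsk2-transfected and -0.53 ± 0.20 in WT-transfected fibroblasts (SD, n = 3 each). It did not pass the threshold between skin and fibroblasts of either allele, with differences of -0.06 and -0.25. Its 2 probes, for NM_007648 and BC028636, were partly at repeated values in skin and in fibroblasts.

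**Figure D2:**
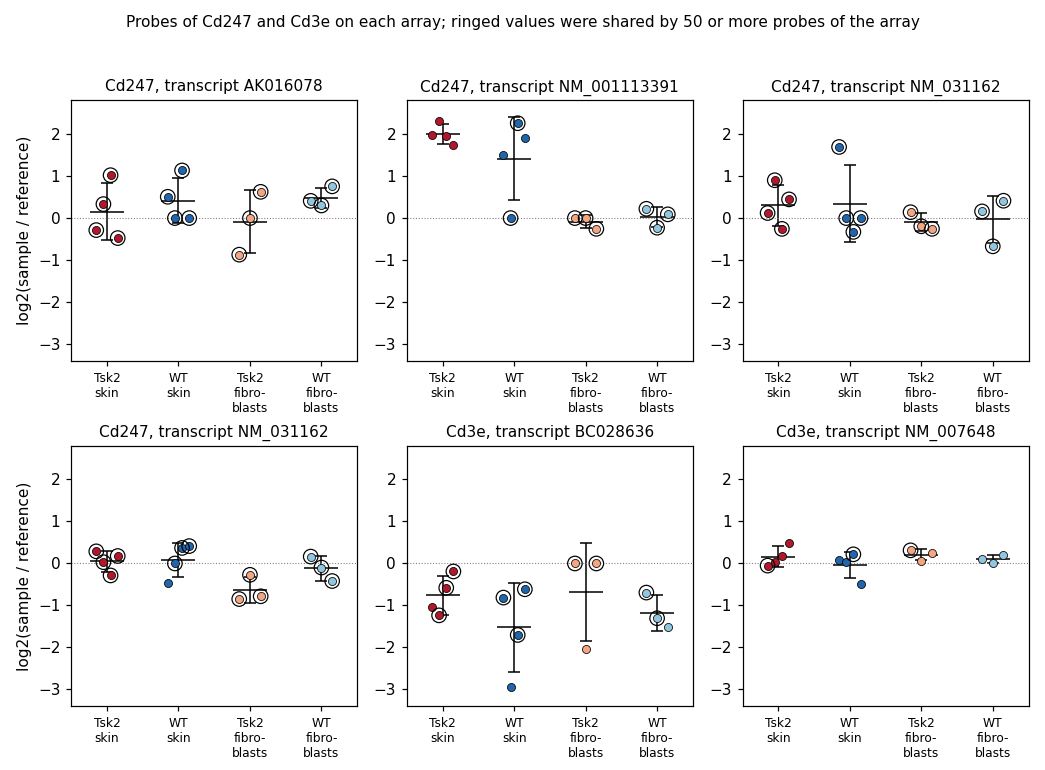
Log2 ratio to the reference RNA (vertical axis) of the 4 Cd247 probes and the 2 Cd3e probes on each array of the 4 groups; filled points are arrays, bars the mean and SD, and a ring marks a value shared by 50 or more probes of its array. The Cd247 probe for NM_001113391 lies above all 6 fibroblast arrays on 7 of the 8 skin arrays, and the Cd3e probe for BC028636 lies below 0 on all 8 skin arrays.

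The second question is whether the Tsk2 allele goes with a change of these genes in skin. All 6 measured genes had a higher mean in Tsk2 than in WT skin, as did 52.7% of all genes, with a median difference of 0.56 on the log2 scale beside 0.030 over all genes, and none passed the adjusted threshold, which 2.91% of all genes did (1.91% higher and 0.998% lower). At an unadjusted limma p under 0.05, 3 of the 6 were higher, Cd3g, Cd3d and Ptpn22, against 13.1% of all genes. The same 3 genes were higher on every Tsk2 skin array than on any WT skin array, as were 9.33% of all genes. Calls in skin depended on the full set of arrays: leaving out Tsk2 replicate 2, 3 or 4 or WT replicate 1, 2 or 3 (6 of the 8 arrays, 1 at a time) left 0 genes past the adjusted threshold, whereas 451 passed it without Tsk2 replicate 1 and 1827 without WT replicate 4, against 568 with all arrays. In bulk skin RNA, a different number of the cells that express these genes, T cells or others, and a different amount of RNA per cell cannot be told apart.

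Cd3d, with the array values given above, averaged 2.05 ± 0.19 in Tsk2 skin and 1.41 ± 0.22 in WT skin (SD, n = 4 each). The difference was 0.64 (SE 0.17, 95% interval 0.25 to 1.02), or 1.56-fold, with an adjusted p of 0.0760 from limma. Cd3g averaged -0.87 ± 0.51 in Tsk2 skin and -1.53 ± 0.19 in WT skin, a difference of 0.66 (SE 0.26, 95% interval 0.074 to 1.24, adjusted p = 0.172). Tsk2 skin replicate 2 had the highest Cd3g value, and without it the difference was 0.40.

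Ptpn22, the phosphatase, stood at -2.41, -2.06, -2.61 and -1.94 in Tsk2 skin, against -3.33, -3.41, -3.06 and -2.76 in WT skin. The means were -2.25 ± 0.31 in Tsk2 skin and -3.14 ± 0.29 in WT skin (SD, n = 4 each), a difference of 0.89 (SE 0.21, 95% interval 0.40 to 1.37), or 1.85-fold, with an adjusted p of 0.0618. The lowest Tsk2 value lay above the highest WT value. Ptpn22 and Cd3d passed the threshold without WT skin replicate 4 (adjusted p = 0.0271 and 0.0487), and neither passed it without any other single array. Without WT skin replicate 2 the differences were 0.80 for Ptpn22, 0.54 for Cd3d and 0.58 for Cd3g, none past the threshold.

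For the remaining members the interval of the difference between Tsk2 and WT skin held 0. Cd3e differed by 0.48 (95% interval -0.14 to 1.10, adjusted p = 0.329). Cd2 differed by 0.14 (95% interval -0.59 to 0.88, adjusted p = 0.819) and Cd247 by 0.06 (95% interval -0.43 to 0.56, adjusted p = 0.887). For Cd2 the highest skin value was that of WT replicate 2, and the genotypes overlapped. For Cd247 the probe for NM_001113391 overlapped between genotypes as well.

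**Figure D3:**
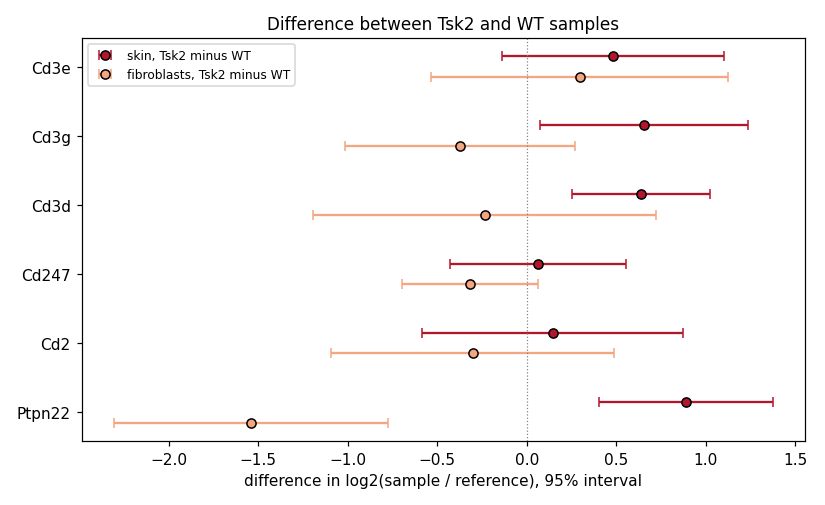
Difference in log2 ratio between Tsk2 and WT samples (horizontal axis) for the 6 measured genes, in skin (dark points) and in transfected fibroblasts (light points), with 95% intervals from limma. The skin intervals of Cd3g, Cd3d and Ptpn22 lie above 0, and that of Ptpn22 in fibroblasts lies below 0.

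Other genes of the pathway were read from lists chosen by role. Of 24 measured genes of proximal signalling, 22 had a higher mean in Tsk2 skin, as did 52.7% of all genes. At an unadjusted limma p under 0.05, 5 were higher (13.1% of all genes), and none passed the adjusted threshold. The list's median difference was 0.24. The kinase Zap70, which docks on phosphorylated CD3 and zeta, averaged -1.71 ± 0.22 in Tsk2 skin and -2.43 ± 0.15 in WT skin (SD, n = 4 each), a difference of 0.72 (SE 0.16) with an adjusted p of 0.0539. The transcription factor Nfatc1, which acts downstream of calcium, averaged 1.40 ± 0.29 in Tsk2 skin and 0.78 ± 0.16 in WT skin, a difference of 0.62 (adjusted p = 0.0974). Neither gene overlapped between genotypes, as was so for 9.33% of all genes in the higher direction.

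Of 26 negative regulators, 15 had a higher mean and 11 a lower mean in Tsk2 skin, with 4 higher and 1 lower at an unadjusted p under 0.05 (13.1% and 9.95% of all genes) and none past the adjusted threshold. Ptprc, the phosphatase CD45 found on all leukocytes, differed by 0.77 (adjusted p = 0.113), and Cbl, a ubiquitin ligase, by -0.64 (adjusted p = 0.130). In skin 37.5% of the Ptprc and 50% of the Cbl probe values were repeated ones. CD45 also promotes the signal by activating Lck, so Ptprc is not a negative regulator alone. Of 17 coreceptors and costimulatory receptors, 13 had a higher mean in Tsk2 skin (52.7% of all genes) and none passed. Il2rb, a chain of the interleukin-2 and interleukin-15 receptors, averaged 1.65 ± 0.30 in Tsk2 skin and 1.12 ± 0.11 in WT skin, a difference of 0.53 (adjusted p = 0.125). Cd4 ran the other way, by -1.58 (adjusted p = 0.170), but 50% of its skin values were repeated ones, and WT skin alone spanned -0.002 to 3.02.

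The variable and constant chains of the receptor were hardly measured. Of 16 symbols only Tcra and Ptcra, the surrogate alpha chain of immature thymocytes, had probes, with 100% and 87.5% of their skin values repeated ones, and neither passed the threshold. Among 13 genes listed for skin gamma-delta T cells, 10 had a higher mean in Tsk2 skin, as did 52.7% of all genes. At an unadjusted limma p under 0.05, 4 were higher (13.1% of all genes). None passed the adjusted threshold. The list holds Skint1, Skint3 and Skint4, which are genes of epithelial cells and not of T cells. Skint3 (difference 2.47, adjusted p = 0.144) and Il2rb, given above, are among the 4. Itgae, the integrin chain CD103 that binds E-cadherin, differed by 0.59 (adjusted p = 0.115), with 43.8% of its skin probe values repeated ones.

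Markers of other cells also differed between the skins. All 15 measured pan-leukocyte genes had a higher mean in Tsk2 skin, as did 52.7% of all genes. At an unadjusted limma p under 0.05, 9 were higher (13.1% of all genes), and none passed the adjusted threshold (2.91% of all genes). The median difference of these 15 genes was 0.57, close in size to that of the T cell receptor set. Ptprc and Vav1 among them were also counted above, Ptprc with the negative regulators and Vav1 with proximal signalling. The list's mean ran from -0.80 to -0.51 on the Tsk2 skin arrays and from -1.37 to -0.71 on the WT skin arrays. Cd52, a small surface glycoprotein of lymphocytes, differed by 0.98 (adjusted p = 0.0601) and Ikzf1, the transcription factor Ikaros, by 0.64 (adjusted p = 0.0602). For Ikzf1, 50% of the probe values in skin were repeated ones. Without WT skin replicate 4, 6 of these leukocyte genes passed the threshold, as did 1827 of 19529 genes in all.

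Among B cell genes 5 of 9, among natural killer and cytotoxic genes 11 of 14 and among macrophage genes 9 of 10 had a higher mean in Tsk2 skin, and none passed. Over all genes, 52.7% had a higher mean, 1.91% rose and 0.998% fell. Of 13 dendritic and Langerhans cell genes 12 had a higher mean. At an unadjusted limma p under 0.05, 6 were higher and 1 lower (13.1% and 9.95% of all genes). In that list 1 gene rose, Itgax, the integrin chain CD11c of dendritic cells, by 0.79 (adjusted p = 0.0478). Of 9 mast cell genes 7 had a higher and 2 a lower mean. Only Hdc, the histamine-forming enzyme of mast cells, rose, by 1.13 (adjusted p = 0.0420). Of 12 fibroblast genes all had a higher mean and 3 rose, namely Fbln1, Pdgfrb and Lum. Of 12 skeletal muscle genes all had a higher mean and 1 rose, Actn3 by 2.01. Of 12 keratinocyte genes 7 had a higher and 5 a lower mean. All 11 proliferation genes had a lower mean, with a median difference of -0.65. No gene of the keratinocyte or proliferation list passed the threshold. Of 16 hair follicle genes 9 fell and none rose, and the mean of that list ran from 0.36 to 3.34 on Tsk2 skin arrays and from 4.04 to 5.53 on WT skin arrays. Each of these calls was lost without Tsk2 skin replicate 2, 3 or 4 or WT skin replicate 1, 2 or 3. The part that these differences in tissue makeup have in the values of the T cell receptor genes was not tested.

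**Figure D4:**
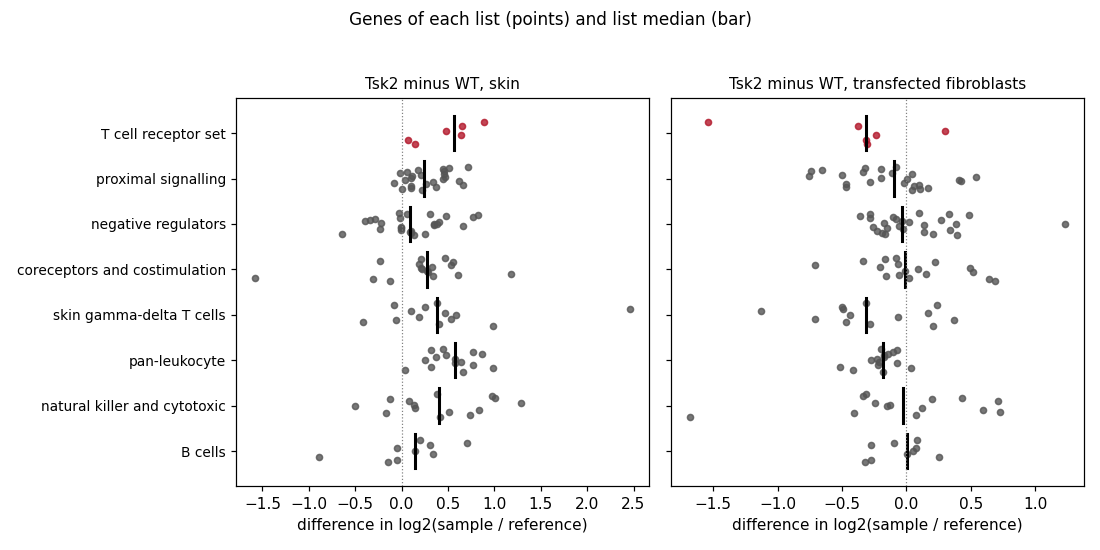
Difference in log2 ratio between Tsk2 and WT samples (horizontal axis) for each gene (points) of the T cell receptor set and of 7 other lists (rows), in skin (left) and transfected fibroblasts (right); bars mark the list medians. The set's median is 0.56 in skin and -0.31 in fibroblasts, and that of the pan-leukocyte list 0.57 in skin and -0.18 in fibroblasts. In fibroblasts all Cd247 and most Cd2 values were repeated ones.

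The third question is whether the allele alters the same genes in cultured fibroblasts. None of the 6 measured genes passed the adjusted threshold, which 0.0512% of all genes did (10 genes). Of the 6, 1 had a higher and 5 a lower mean in Tsk2-transfected fibroblasts, where 49.8% of all genes had a higher one. This count rests partly on dim values. In fibroblasts 100% of the Cd247 probe values, 83.3% of the Cd2 values and 41.7% of the Cd3e probe values were repeated ones. Ptpn22 stood at -2.42, -2.66 and -2.37 in Tsk2-transfected fibroblasts, against -1.64, -0.61 and -0.58 in WT-transfected fibroblasts. The groups did not overlap, as was so for 10.2% of all genes in the lower direction. The means were -2.48 ± 0.16 in Tsk2-transfected and -0.94 ± 0.61 in WT-transfected fibroblasts (SD, n = 3 each), a difference of -1.54 (SE 0.31, 95% interval -2.31 to -0.77, adjusted p = 0.246 by limma). Cd3g differed by -0.37 (adjusted p = 0.606) and Cd3d by -0.23 (adjusted p = 0.831), at the low ratios given above. The fibroblast values of Cd3d were each shared by 16 to 38 probes of their array, against 1 to 11 in skin, and so lay nearer the dim range.

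Ptpn22 was thus higher on every Tsk2 array in skin and lower on every Tsk2 array in fibroblasts than on any WT array of the same system. The Tsk2 difference in skin minus that in fibroblasts was 2.43 (SE 0.38, 95% interval 1.61 to 3.24, adjusted p = 0.0202), and it was the 1 member of 6 past the threshold in this contrast, which 1.4% of all genes passed. By p it ranked 24 of 19532 genes. The call was lost without Tsk2-transfected replicate 1 (adjusted p = 0.0605) or 2 (0.0633), without WT-transfected replicate 3A (0.0697) or 3B (0.0714), and with 3A and 3B averaged as 1 sample (2.25, adjusted p = 0.0739); the difference stayed between 2.25 and 2.78 when any 1 array was left out. Its order over the groups was WT-transfected fibroblasts highest, then Tsk2 skin and Tsk2-transfected fibroblasts, which differed by 0.23 (adjusted p = 0.528), then WT skin lowest; WT-transfected and Tsk2-transfected fibroblasts did not differ past the threshold, and WT skin was not tested against Tsk2-transfected fibroblasts. WT skin was 2.20 below WT-transfected fibroblasts on the log2 scale, or 4.59-fold lower. For Cd3g and Cd3d the same contrast gave 1.03 (adjusted p = 0.193) and 0.87, neither past the threshold.

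To see which genes vary over the 8 skin arrays like the 3 members without repeated values, the centred values of Cd3g, Cd3d and Ptpn22 were averaged. The averages were 0.19, 0.76, 0.12 and 0.38 in Tsk2 skin, against -0.34, -0.62, -0.31 and -0.19 in WT skin, so the genotypes did not overlap and a gene that separates them scores high for that reason alone. Among 3707 genes with no repeated skin value and an SD of at least 0.3, the 8 of highest Pearson r were Mocs2, Ecscr, Stap2, Gpd2, Slc50a1, Tgfbi, Gimap1 and Acsl4, with r from 0.984 to 0.989, given as a description over arrays that share their genotypes. Gimap1 is a GTPase of lymphocytes, and Tgfbi, a matrix protein induced by TGF-beta, rose to 5.56 in Tsk2 skin, against 4.55 in WT skin (adjusted p = 0.0436). The median r was 0.71 for 9 pan-leukocyte genes and 0.69 for 9 proximal signalling genes, beside 0.29 for all candidates. Lists of other cells scored as high, with 0.77 for 4 fibroblast genes, 0.72 for 12 skeletal muscle genes and 0.66 for 6 mast cell genes. The median was -0.88 for 6 hair follicle genes and -0.65 for 8 proliferation genes.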

How the data were processed

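RNA from 8 skin and 6 fibroblast samples was labelled with Cy5 and hybridised on 2-colour arrays with a Cy3 universal mouse reference, per the labels' protocols. The deposited values were taken as log2 ratios of sample over reference from their range; the log base, feature extraction and normalization were not given in the sources used here. No dye was swapped. The platform annotation was matched by gene ID to RefSeq symbols, which changed no symbol. It named 32664 of 41174 probes with 1 gene (45 had several, 8465 none). Probes of a gene were averaged. With R 4.3.3 and limma 3.58.1, lmFit and eBayes were fitted over 19532 genes for 5 comparisons, with Benjamini-Hochberg adjustment over all genes and a threshold of 0.05. Each Tsk2 against WT comparison used its own arrays, and the others used all 14. The number of arrays limits the precision. Every member was named. From each other list, up to 4 genes past the threshold, or else the 2 of lowest p in skin, were picked for naming. Some of those picked are not described. Members and lists were chosen with earlier results of these data known. The fits were tested on simulated data. Alternatives covered normalization, zeros, repeated values, probe choice, weights, variance priors, replicate 3A and 3B, and leaving out each array. The labels do not say that replicate numbers shared by Tsk2 and WT fibroblasts mark shared cultures, so no block was used in the main fit. Correlations of deviations were 0.008 to 0.019 between samples of the same number and -0.025 to 0.007 between the others.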

Additional observations from a re-analysis of the deposited data

Results flagged for a closer look

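Among the 36 genes picked for naming, 9 of 72 skin groups of 4 had 1 array apart from the other 3. Its gap to the nearest of them, divided by the group's range, was above Dixon's 95% critical value. In normal groups not picked by their values, about 1 in 20 would lie above it. Apart from the members, these genes were picked by their p in these data, and some held repeated values. The share flagged here therefore cannot be set against that rate. The ratios were 0.965 for Ikzf1 and 0.917 for Tcra (both lowest in Tsk2 skin replicate 2), and 0.934 for Krt33a (highest in Tsk2 skin replicate 1). In WT skin replicate 2, the array with the most exact zeros, they were 0.901 for Ptcra (highest), 0.867 for Cbl (highest) and 0.901 for Ms4a1 (lowest). In WT skin replicate 4 they were 0.854 for Sfn (lowest), 0.849 for Krt31 (lowest) and 0.851 for Ccnb2 (highest). No member of the T cell receptor set was among them.

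The Tsk2 difference in skin minus that in fibroblasts passed an adjusted limma p of 0.05 for Ptpn22 (2.43 on the log2 scale), for the chemokine Ccl5 (2.10), Hdc (1.87), Lum (1.74) and Actn3 (2.25), and in the lower direction for the hair keratins Krt34 (-5.09) and Krt33a (-5.49) and for Krtap8-1 (-3.16). All but Ptpn22 were picked for naming because they had passed in skin or in fibroblasts, and this contrast reuses those values. Over 25 alternatives the count past the threshold stayed at 1 for the natural killer and cytotoxic list, which holds Ccl5. That count ran from 0 to 2 for the mast cell list, 0 to 5 for fibroblasts, 0 to 3 for skeletal muscle and 0 to 10 for the hair follicle. Ccl5, which T cells and natural killer cells make, fell by 1.68 in Tsk2-transfected fibroblasts (adjusted p = 0.0484) and differed by 0.42 in skin (adjusted p = 0.247). The call in fibroblasts was lost in 11 of 19 alternatives, among them each that left out 1 fibroblast array. For Cbl (-0.85) and Itgae (1.03) every Tsk2 array lay on one side of the WT arrays in skin and on the other in fibroblasts, but the limma test of that difference did not pass. In the directions of Itgae, 9.33% of all genes were higher without overlap in skin and 10.2% lower in fibroblasts. The share with opposite directions in both was not counted. Repeated values made up 50% of the Cbl probe values in skin, and 43.8% of those of Itgae in skin and 58.3% in fibroblasts.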

How the results depend on the processing

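Over all alternatives, 652 of the members' differences kept their direction and side of the threshold, 16 gained a call, 8 lost one and 15 changed sign. For Tsk2 against WT skin, the count of members past the threshold was 0, and it became 1 with probes at repeated values in every group left out, with array weights, or with all 14 arrays in 1 fit (Ptpn22 each time). It became 2 (Ptpn22 and Cd3d) with repeated values taken as missing or, chosen after seeing the data, with probes repeated on 4 or more of the 8 skin arrays left out; leaving out 1 array gave 0 to 2. Over these settings the genes called in skin ranged from 0 to 2814, against 568. In fibroblasts the count stayed at 0 under all 20 alternatives, with 0 to 40 genes called against 10; a replicate block for the transfection number gave Ptpn22 a difference of -1.35 (adjusted p = 0.447), 0 members and 0 genes. For the difference between systems, leaving out 1 array gave 0 to 1 members, averaging 3A and 3B gave 0, and 6 to 1492 genes were called, against 273. For Tsk2 skin against Tsk2-transfected fibroblasts, 2 members passed with repeated values missing, which leaves Cd247 and Cd2 without a value, and leaving out 1 array gave 4 throughout; for the WT pair it gave 3 to 4. Changes of sign were all in differences that did not pass, and their cause was not tested. Cd247 in skin was -0.317 with zeros missing, -0.0663 with array weights and -0.124 to 0.162 with 1 array left out. Cd2 in skin ran from -0.0103 (without WT replicate 3) to 0.446 with 1 array left out. In fibroblasts Cd3e was -0.189 with repeated values missing, and Cd3d ran from -0.654 to 0.0653 (without WT replicate 1) with 1 array left out. Between systems Cd3e ran from -0.191 (without Tsk2-transfected replicate 2) to 0.381 with 1 array left out, and was -0.0393 without WT skin replicate 2. Against Tsk2-transfected fibroblasts, Cd3e in Tsk2 skin was 0.288 with repeated values missing and ran from -0.438 to 0.134 with 1 array left out, and Ptpn22 was -0.167 with quantile normalization. Low signal limits Cd247, Cd2 and Cd3e most.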
